A study of Homo sapiens with 3 samples.

Results

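The SOX4 peaks that lay inside genes of long noncoding RNA (lncRNA), met no STAT6 peak and stood apart from protein-coding genes are described here. There were 400 of them, 8.86% of the 4513 peaks that the authors called for SOX4 against IgG. The cells were Hep3B, a human line established from a hepatocellular carcinoma. The members were chosen by measured values: a SOX4 peak had to be called, and no STAT6 peak could touch it. The remaining criteria were positional. The summit, the base of highest signal in a peak, had to lie inside a gene that RefSeq lists as lncRNA or ncRNA, outside pseudogenes, more than 3000 bp from any protein-coding gene and within 500 kb of one. Every one of the 400 fell in a gene of the lncRNA type.

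The study asked which sites SOX4 and STAT6 hold in common in liver cancer cells. It deposited peak lists from a SOX4 antibody library and a STAT6 antibody library of Hep3B, each called against an IgG library, IgG being an antibody with no specific target. Per the labels the cells were cultured in medium with serum, and no further treatment or gene change was named for the 3 libraries. Chromatin was profiled by CUT&RUN, in which a nuclease tethered to the antibody releases the DNA around bound sites. Each antibody had 1 library from 1 cell line, so no value has a replicate check, no p-value was computed, and every comparison is between peaks of these libraries.

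SOX4 is a transcription factor of the SOX family, whose HMG box binds the minor groove of DNA at short motifs built around ACAAT or ACAAAG and bends it. It acts in embryonic development and is often raised in tumours, hepatocellular carcinoma included. STAT6 is a factor that binds TTC and GAA separated by a short spacer once interleukin-4 or interleukin-13 signalling has phosphorylated it. LncRNAs are transcripts without a long open reading frame. Their genes are often long and poorly characterised, many carry only a locus number as a name, and enhancers that act on distant genes frequently lie inside them. A peak inside such a gene gives the position of SOX4 signal and does not tell whether the lncRNA or any neighbouring gene is controlled by it.

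RefSeq promoter windows, which run from 250 bases before to 50 bases after a start, were at hand for 27305 genes, and 5 of the 35116 windows lay under a member peak. The start site itself fell inside the peak in 3 of the 5, and these are printed first. The window under the highest member of all is printed last. Only 237 members lay in a gene with a start in the promoter table. For the rest, whether the peak covered the start of its own gene could not be checked. Sequences are from RefSeq, assembly GRCh38.p14, read 5′ to 3′ on the strand of the gene, with the bases inside the SOX4 peak in capitals.
LOC124901454 (chr6:160520100-160520399, plus strand): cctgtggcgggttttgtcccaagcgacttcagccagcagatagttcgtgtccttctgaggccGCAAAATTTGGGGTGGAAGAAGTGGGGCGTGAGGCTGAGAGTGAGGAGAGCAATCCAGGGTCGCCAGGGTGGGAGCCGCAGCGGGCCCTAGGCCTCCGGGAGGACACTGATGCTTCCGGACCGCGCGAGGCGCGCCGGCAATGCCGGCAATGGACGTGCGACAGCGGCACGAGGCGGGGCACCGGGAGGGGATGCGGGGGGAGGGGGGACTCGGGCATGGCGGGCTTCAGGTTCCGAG
LOC124904990 (chr21:5710123-5710422, minus strand): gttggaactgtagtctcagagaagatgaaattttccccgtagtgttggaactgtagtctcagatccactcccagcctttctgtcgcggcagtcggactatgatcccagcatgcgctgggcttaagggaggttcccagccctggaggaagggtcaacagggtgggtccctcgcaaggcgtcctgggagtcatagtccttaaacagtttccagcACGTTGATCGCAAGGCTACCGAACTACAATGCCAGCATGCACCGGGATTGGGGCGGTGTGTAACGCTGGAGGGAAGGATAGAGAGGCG
LOC105369784 (chr12:58097944-58098243, minus strand): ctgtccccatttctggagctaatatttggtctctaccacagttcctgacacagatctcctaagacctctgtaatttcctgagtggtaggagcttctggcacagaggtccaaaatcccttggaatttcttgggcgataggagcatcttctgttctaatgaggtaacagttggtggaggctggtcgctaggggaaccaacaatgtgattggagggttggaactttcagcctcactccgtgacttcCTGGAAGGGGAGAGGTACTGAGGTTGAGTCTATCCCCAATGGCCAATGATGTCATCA
LOC124903139 (chr13:27829960-27830259, plus strand): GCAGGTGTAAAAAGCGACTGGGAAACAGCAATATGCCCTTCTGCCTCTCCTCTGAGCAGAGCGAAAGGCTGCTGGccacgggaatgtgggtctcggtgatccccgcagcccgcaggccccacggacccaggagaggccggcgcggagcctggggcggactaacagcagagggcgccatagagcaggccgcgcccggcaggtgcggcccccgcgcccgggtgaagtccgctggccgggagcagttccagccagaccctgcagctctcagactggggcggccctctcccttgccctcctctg

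At LOC124901454 the peak covered 238 of the 300 bases, and its summit lay 95 bases downstream of the start. The window was rich in G and C (67.7%), against a median of 58.7% over all windows. It held none of the 4 motifs searched on both strands, which were ACAAAG, the STAT-type TTCNNNNGAA, the core ACAAT and the longer AACAAT that contains it. The peak was low, with a fold enrichment over IgG of 3.33 from 21 SOX4 fragments. Its nearest protein-coding gene was LPA, which encodes apolipoprotein(a), made in the liver, at 11.0 kb.

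The peak at LOC124904990, on the short arm of chromosome 21, reached 4.5-fold with 34 fragments and had its summit 69 bases downstream of the start. It covered 88 bases of the window. That window held 1 ACAAT, inside the capitals, as against 27.4% of all promoter windows of this length that hold one. LOC105369784 had a peak of 4.27-fold with 49 fragments and its summit 544 bases downstream, so that 57 bases of the window lay in the peak. It held 1 AACAAT, a motif found in 10.1% of windows, and that ACAAT was outside the capitals. ACAAAG stood in 16.1% and TTCNNNNGAA in 6.44% of all windows, and in neither of these. A match is only a run of letters in this window, and the missing ones say nothing about SOX4 itself.

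The LOC124903139 window, with 69.0% G and C and none of the motifs, was met on its upstream side by 75 bases of a peak whose summit lay 899 bases before the start. That peak was the highest of the 400 and belonged by its summit to PLUT. The fifth window, of LOC124909346 on chromosome 3, had a peak of 5.64-fold with a summit 697 bases upstream and shared 80 bases with it. The bases under the other members were not analysed here.

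Fold enrichment is the authors' ratio of SOX4 signal at the summit to a control level from the IgG library. That level took the same lowest value for 194 of the 400 members, as given below. Its median over the members was 5.10, with quartiles of 3.76 and 7.47, a lowest value of 2.54 and a highest of 43.2. A fold of 20 or more was given to 15 members (3.75%) and a fold of 10 to 20 to 42 (10.5%). The bulk lay lower, with 148 members (37.0%) between 5 and 10, 174 (43.5%) between 3 and 5, and 21 (5.25%) under 3. The peaks were 786 bp wide at the median, with quartiles of 550 and 1038 and a range of 265 to 2725. Wide peaks were high peaks, as Spearman's rho between fold and width was 0.83 over the 400, a description over peaks of 1 library.

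A fold of at least 10 was reached by 57 of the 400 (14.2%, Wilson 95% interval 11.2 to 18.0). The same fold was reached by 29.2% of all SOX4 peaks and by 18.5% of the 3873 that met no STAT6 peak. Among the 1512 SOX4-only peaks between genes it was 13.6% (12 to 15.4), close to the members, and their median fold was also 5.10. Among the 1191 inside protein-coding genes it was 22.3% (20 to 24.7), with a median fold of 5.65, and that interval did not meet the members' interval. The 640 peaks shared with STAT6 had a median of 95.5, and 94.5% of them passed. These intervals cover counting error over peaks only.

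**Figure D1:**
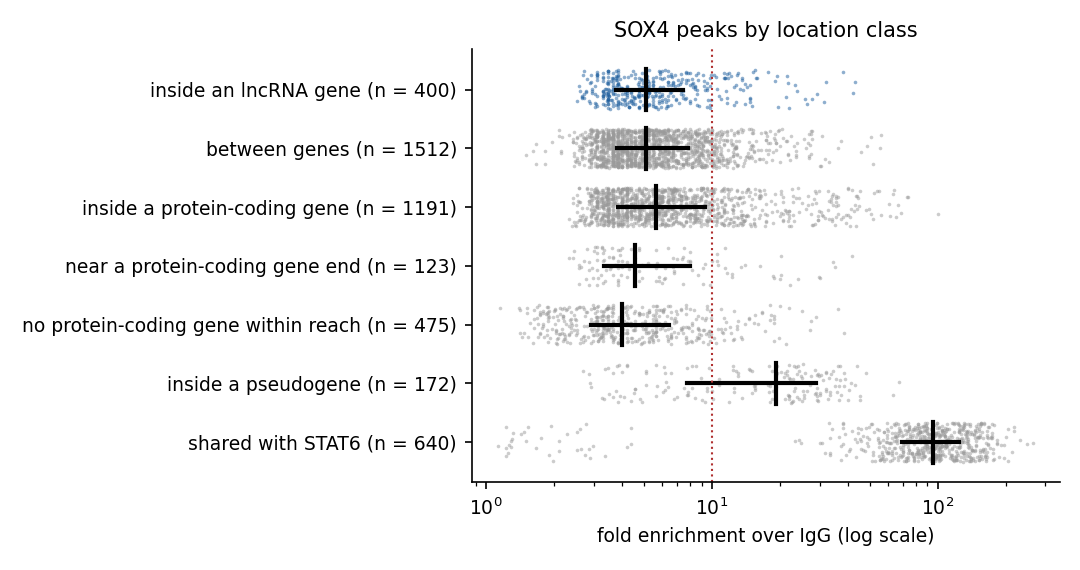
Fold enrichment over IgG (log axis) of every SOX4 peak, 1 point a peak, in 7 location classes, with the members in blue. The vertical black bar is the median, the horizontal bar runs between the quartiles, and the dotted line marks a fold of 10. The 400 members centre on 5.10 and reach 43.2, while peaks shared with STAT6 centre on 95.5.

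Only 3 peaks shared with STAT6 met the same positional criteria in lncRNA genes. Their folds were 24.8, 64.6 and 124, so that 1 of them lay within the range of the members and the other two above it. Their median fragment number at the summit was 624, against 30.5 for the members.

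The fragments behind each peak could be recovered. The authors' fold and −log10 p of a peak fitted one relation, with the fold as (fragments + 1) over (control level + 1) and p as the Poisson tail for that control level. Solving both gave a whole number of fragments at all 400 member summits, to within 0.005 on the −log10 p, and 10 of the 400 were solved when the added 1 was left out. The members rested on a median of 30.5 SOX4 fragments, with quartiles of 21 and 45 and a range of 15 to 241. The median −log10 q was 11.1, from 1.61 to 311.

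The IgG control level solved in this way, in units of SOX4 fragments, sat at its lowest value of 4.49 for 194 members (48.5%). For the other 206 it was higher, up to 28.0, and for 11 it was more than 2 times the lowest value. Members at the lowest level had a median fold of 5.47 from a median of 29.0 fragments, and the others 4.82 from 31. The lowest value was shared by 1982 of all SOX4 peaks (43.9%). The STAT6 list had a shared lowest value of its own, 2.16 at 303 of its 1078 peaks. Whether the SOX4 value of 4.49 was IgG measured at each summit or a set lower limit was not tested. Among members that share it, fold differed by the number of fragments alone. At the lowest level the faintest member rested on 15 fragments, for a fold of 2.92, and the faintest of all SOX4 peaks there on 14, for a fold of 2.73. The low members thus stood next to the limit of what was called.

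**Figure D2:**
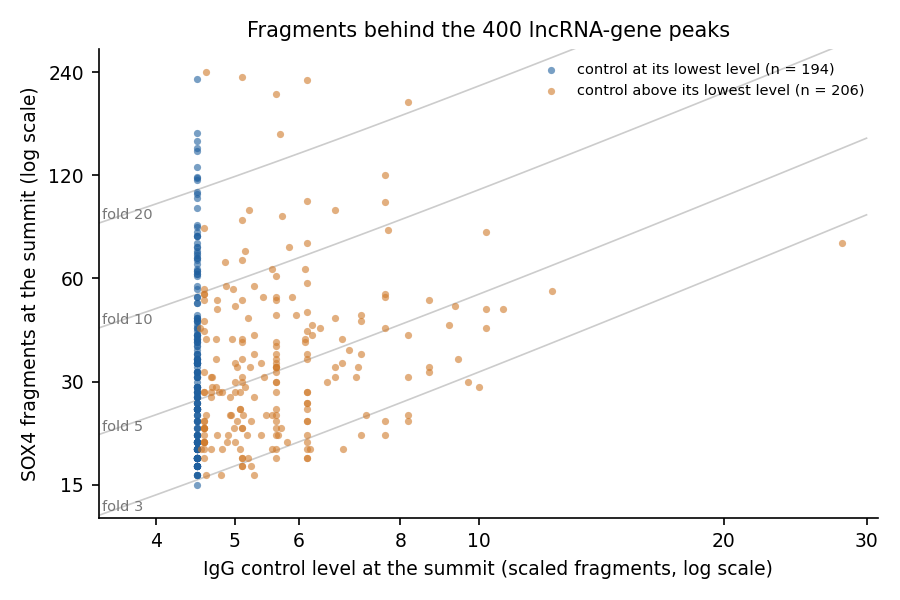
SOX4 fragments at the summit against the IgG control level solved for the same peak for the 400 members, both axes logarithmic, with grey lines of equal fold. The 194 blue points share the lowest control level of 4.49, and along that column fragment numbers run from 15 to 230, while the 206 orange points lie to the right.

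The control level moved with the chromosome. All 9 members on chromosome X, 14 of 17 on chromosome 11 and 26 of 38 on chromosome 3 were at the lowest level, whereas 1 of 28 on chromosome 6, 0 of 8 on chromosome 19 and 0 of 12 on chromosome 20 were. The median control level of members was 5.59 on chromosome 6 and 5.87 on chromosome 20. All SOX4-only peaks of chromosome 6, with a median of 5.69, showed the same. A given fold on these chromosomes therefore rested on more SOX4 fragments. The cause of this was not tested.

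The highest member lay in PLUT on chromosome 13 (27828570 to 27830034), 10.2 kb from the nearer end of that gene. PLUT is an lncRNA neighbouring the pancreatic homeobox gene PDX1 and named for raising its transcription. The peak had a fold of 43.2, a −log10 q of 311 and 241 fragments over a control level of 4.61. Its nearest protein-coding gene was GSX1, a homeobox gene of the developing brain, at 34.5 kb. By fold it ranked 620 among the 4513 SOX4 peaks.

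LOC105371280 on chromosome 16 (55719496 to 55720855) followed with a fold of 42.1 from 230 fragments. It lay 14.0 kb from SLC6A2, the noradrenaline transporter. This member was also the one nearest to a STAT6 peak, at 4.88 kb. LOC105374455 on chromosome 2 (33636984 to 33638415) had a fold of 38.2 from 232 fragments, 38.4 kb from FAM98A. LINC00842 on chromosome 10 (46415736 to 46417346) came next with 32.1 from 228 fragments, and ANXA8L1, an annexin gene, was 24.9 kb away.

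LOC105375789 on chromosome 8 (141459566 to 141461028) had a fold of 31.4 from 207 fragments. PTP4A3, a phosphatase gene linked to metastasis, was 27.8 kb away. LOC102723373 on chromosome 16 (53377510 to 53378743) reached 29.2 from 159 fragments at 50.6 kb from CHD9, a chromatin remodeller. SNHG14, the long imprinted transcript that hosts small nucleolar RNAs and runs antisense to UBE3A, had a fold of 27.7 from 151 fragments on chromosome 15 (25133455 to 25134870). That summit lay deep in its gene of 596 kb, 285 kb from the nearer end and 155 kb from SNRPN, an imprinted splicing gene.

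LOC124900881 on chromosome 4 (187975866 to 187977270) had a fold of 26.4 from 144 fragments. Its protein-coding neighbour at 19.1 kb was ZFP42, a marker of pluripotent cells. LOC102723370 on chromosome 11 (21851786 to 21853155) reached 25.9 from 141 fragments, 277 kb from NELL1. LOC105372310 on chromosome 19 (20160820 to 20162388) reached 23.8 from 158 fragments over a control level of 5.69, with the zinc finger gene ZNF486 at 5.71 kb. Of these 10 members, 5 were at the lowest control level, and their ranks among all SOX4 peaks ran from 620 to 797.

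The other end of the range was close to the background. LOC105374689 on chromosome 5 (24314940 to 24315343) had the lowest fold, 2.54, from 21 fragments over a control level of 7.66. CDH10, a cadherin gene, was 172 kb away. LINC01182 with 2.57 and FAM230E with 2.62 were next, both also over a raised control level (6.79 and 8.17).

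The widest members were not the highest. The one of greatest width lay in LOC102724701 on the short arm of chromosome 21 (6369210 to 6371934), 2725 bp across. Its fold was 2.65 with 76 fragments at the summit over a control level of 28.0, the highest of all 400. LOC105374107 on chromosome 3 (130813496 to 130815751) was 2256 bp wide with a fold of 6.38 from 34 fragments. MITA1 on chromosome 8 (78868500 to 78870643), an lncRNA named as a metabolically induced tumour activator, was 2144 bp wide with 9.23 from 57 fragments.

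The 400 summits were spread over 358 of the 18355 lncRNA and ncRNA genes in the annotation (1.95%). A single member was found in 325 of these genes, 2 in 26 and 3 or more in 7, of which 2 held 4. The 33 genes with more than 1 held 75 members, 18.8% of all (15.2 to 22.9). In 21 cases the summit lay in more than 1 lncRNA gene, and 1 of these genes was then named. Of the 400 peaks, 390 (97.5%) were wholly inside an lncRNA gene and 10 crossed its border.

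Genes with a member were long, with a median of 67.1 kb against 9.0 kb over all lncRNA genes. The share of genes with a member was larger in each longer class, from 0.227% of the 9701 genes up to 10 kb to 1.86% of those of 10 to 50 kb, 5.88% of those of 50 to 100 kb, 11.3% of those of 100 to 250 kb and 25% of the 236 longer ones. Per length of gene, counted whole and so with stretches where no member could lie, the 4 classes above 10 kb lay close together. There were 87.3 members per 100 Mb of gene (exact Poisson 95% interval 72.7 to 104) at 10 to 50 kb and 87.3 (69.3 to 108) above 250 kb. Those between had 90.2 (71.2 to 113) and 81.6 (65.9 to 100). Genes up to 10 kb had 55.2 (35 to 82.8), an interval that met those of the other classes. How much of each class the rule leaves out was not measured. Median fold ran from 5.28 in the shortest to 4.74 in the longest class, and rho between fold and gene length was -0.07.

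**Figure D3:**
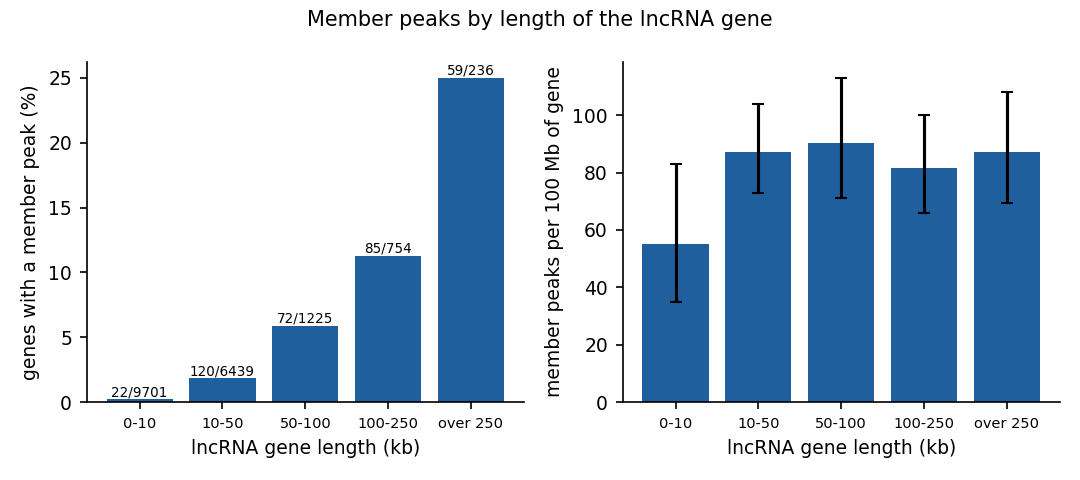
Left, percentage of lncRNA genes with at least 1 of the 400 members in 5 classes of gene length, with the gene numbers above the bars. Right, members per 100 Mb of whole gene length in the same classes, with exact Poisson 95% intervals as error bars. The share of genes climbs from 0.227% to 25%, while the rate per length lies between 81.6 and 90.2 from 10 kb upwards.

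Measured over the bases where a member could lie, the lncRNA genes carried 133 SOX4-only peaks per 100 Mb (121 to 147) in 300.1 Mb. Between genes the rate was 157 (149 to 165) in 962.4 Mb, and inside protein-coding genes it was 94.3 (89.0 to 99.8) in 1263.4 Mb. Over all chromosomes the members thus lay less densely than peaks between genes and more densely than peaks inside protein-coding genes. The intervals did not meet, but they cover counting error only and take neighbouring peaks as independent. The upper end for lncRNA genes, 147, stood just under the lower end between genes, 149. On chromosomes 7, 13, 14, 16, 20, 21 and Y the lncRNA rate was above that between genes, and on the rest it was below. The rates that were above rest on few members, from 27 on chromosome 7 down to 4 on Y. No intervals were computed for single chromosomes. Assembly gaps were not removed from these lengths, and pseudogenes were not removed from the protein-coding length.

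By chromosome the members were most numerous on chromosome 3, with 38 (9.5%). Chromosome 22 had 1, which was 31.1 per 100 Mb of eligible lncRNA gene, and the Y chromosome had 4, which was 264. Both ends of this range rest on few peaks. On the Y chromosome LOC101929148 and LOC102725532, both of 45.8 kb, held members 9211 and 9212 bp from the nearer end, with 34 and 33 fragments. How reads with several positions were treated is not given, and whether these are separate signals was not tested.

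Within their genes the summits were spread much as the bases were. The median distance to the nearer end was 17.9 kb, with quartiles of 6.21 and 49.3 kb and a range of 25 bp to 301 kb. More than 10 kb separated 246 members (61.5%) from both ends, more than 50 kb separated 99 (24.8%), and more than 100 kb separated 45 (11.2%). Of the lncRNA gene bases where a member could lie, 61.2%, 23.2% and 10.2% were as far from both ends. Within 1000 bp of an end lay 23 members (5.75%, 3.86 to 8.48) and 6.29% of these bases. For the 237 members whose gene had a start in the promoter table, the median distance to a start was 35 kb, and 7 were within 1000 bp of one. Counted from the 5′ end, the first, middle and last part of equal length in these genes held 79 (33.3%), 91 (38.4%) and 67 (28.3%) of them.

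Among the 23 near a gene end the highest fold was in CERNA2, an lncRNA named as a competing endogenous RNA, on chromosome 10 (84166800 to 84167945). It had 12.8 from 69 fragments, 78 bp inside the gene and 6.5 kb from GPR15LG. LOC105377167 on chromosome 3 (74824812 to 74825762) had 9.48 from 51 fragments at 155 bp from its end, and a second member of 12.9 from 70 fragments further in (74830657 to 74831797). LINC02531 on chromosome 6 (92722864 to 92724240) had 8.28 from 58 fragments at 494 bp. LOC124904552 on chromosome 1 (233733942 to 233735225) had 7.47 at 279 bp, with the potassium channel gene KCNK1 as neighbour.

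In the 7 genes with 3 or more members, every SOX4 summit in the gene was a member. In LOC102723370, a gene of 367 kb on chromosome 11, the folds along the gene were 3.64, 4.88, 6.38 and 25.9 within a span of 63.6 kb. The last of these is the high member near NELL1 named above, and its closest partner lay 4.66 kb away. LOC105376107, of 378 kb on chromosome 9, held 4 low peaks of 3.46, 3.75, 3.83 and 4.29 from 18 to 23 fragments over 235 kb, with SPATA31D1 as neighbour. LINC02006, of 379 kb on chromosome 3, held 4.56, 5.65 and 10.4 over 288 kb.

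LOC105377700, of 348 kb on chromosome 5, was the gene in which all 3 members were above the median, with folds of 7.65, 11.3 and 14.0 from 41, 68 and 76 fragments within 45.5 kb. CCNG1, a cyclin G gene induced by p53, lay 118 kb from the highest. LOC124903064 was the exception in size, at 27.2 kb on chromosome 12, with 5.10, 15.2 and 8.16 within 12.9 kb, between the zinc finger genes ZNF605 and ZNF26. LOC107985664, of 270 kb on the X chromosome, held 4.92, 3.46 and 3.28 near ZDHHC15. LOC102724701, the gene of 442 kb with the widest peak, held 2.95, 3.30 and 2.65 from 20, 21 and 76 fragments.

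**Figure D4:**
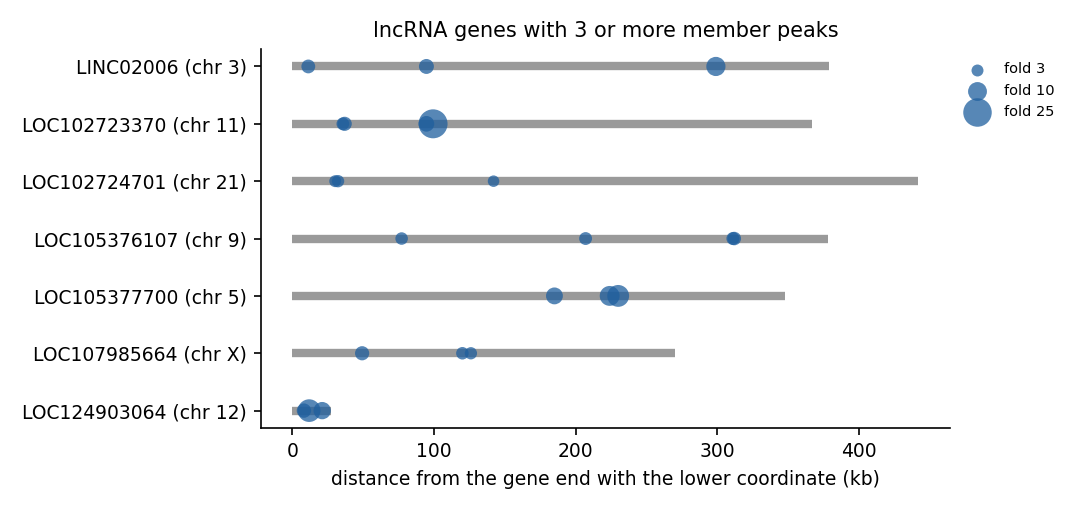
The 7 lncRNA genes with 3 or more members, drawn to scale as grey bars from the end with the lower coordinate (kb), with a blue point at each summit whose area grows with the fold. LOC102723370 shows the contrast within a gene, with one point of 25.9 beside others of 3.64 to 6.38.

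Of all 400 members, 49 had another SOX4 summit within 10 kb and 121 within 100 kb, and the median distance to the next was 237 kb. No member overlapped any of the 1562 microRNA hairpins in the RefSeq table. Genes named as hosts held 3 members, in MIR325HG and MIR4300HG for microRNAs and in SNHG14 for small nucleolar RNAs. The counts of this paragraph were not made over all SOX4 peaks, so they do not set the members apart.

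Most members lay in genes with a locus number for a name. Such LOC genes held 255 members (63.8%), and 1.80% of the 12408 LOC genes had one. Genes named LINC held 69 (17.2%), with 2.78% of 2304 genes hit. Antisense genes held 30 (7.50%), with 1.32% of 2049 hit, and divergent transcripts, which start beside a protein-coding gene and run away from it, held 17 (4.25%), with 2.70% of 592 hit. Host genes held 3 (0.75%), with 2.59% of 116 hit, and genes of other names held 26 (6.5%), with 2.82% of 886 hit. These shares thus ran from 1.32% to 2.82%, around the 1.95% over all lncRNA genes. They were not matched for gene length. How much of each kind the rule leaves out near protein-coding genes was not measured.

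Protein-coding genes lay at a median distance of 79.1 kb, with quartiles of 26.4 and 211 kb, and 358 different genes were nearest to a member. Within 10 kb were 44 members (11.0%), within 50 kb 157 (39.2%), within 100 kb 215 (53.8%) and within 250 kb 317 (79.2%). Peaks between genes lay closer, at a median of 55.4 kb. Height did not follow this distance among the members: the median fold was 5.12 at 3 to 10 kb, 5.24 at 10 to 50 kb, 5.28 at 50 to 100 kb, 5.00 at 100 to 250 kb and 4.69 beyond. The rho between fold and distance was -0.04.

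The rule's distance limits cut through peaks of like height. Just inside 3000 bp were LOC100128276 (3401 bp from GLT1D1, fold 4.38), LOC105372717 (3468 bp from DIDO1, 3.51) and LOC105373999 (3901 bp from OR5H6, 3.10). Just outside were POLR2J2-UPK3BL1 (2309 bp, 3.52), LOC729291 (2127 bp, 5.83) and LOC107987209 (2014 bp, 4.19). At 500 kb the nearest inside were LOC105378178 (498 kb from RPS29, 14.8), LOC107986068 (490 kb, 5.47) and LOC105370777 (488 kb, 5.63). The nearest outside were LOC105371310 (517 kb from CDH11, 11.5), LOC107986770 (523 kb from ETV1, 5.35) and LOC105376214 (526 kb, 3.10).

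STAT6 peaks were distant from most members, at a median of 5.69 Mb, with quartiles of 2.21 and 13.2 Mb. The rule demands only that the peaks do not touch. The STAT6 list held 1078 peaks against 4513 for SOX4. STAT6 signal below the calling threshold was not measured at the members, so a missing STAT6 peak is not a lack of STAT6. Between genes the median was 5.53 Mb. A STAT6 peak lay within 1 Mb of 53 members (13.2%) and within 100 kb of 8 (2.0%), against 45 (2.98%) within 100 kb between genes. The 8 had folds from 2.77 to 42.1 with a median of 9.57, and the other 392 had a median of 5.08.

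These 8 were uneven. LOC105371280, described above, was within 10 kb and was alone in that. LOC107984703 on chromosome 14 held 2 of them, a peak of 4.01 (95730016 to 95730638) at 15.6 kb and one of 11.7 at 21.1 kb, near TCL1A, an oncogene of lymphocytes. MICB-DT on chromosome 6 (31486891 to 31487750), the divergent transcript of the stress ligand gene MICB in the major histocompatibility region, had 7.40 from 82 fragments over a control level of 10.2, at 17.4 kb. The others were HCG17 (2.77 at 20.2 kb), LOC105375468 (21.7 at 28.1 kb), LOC124904552 (7.47 at 61.4 kb) and TP53TG1, a p53 target lncRNA (17.7 at 70.6 kb).

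Of a list of 81 lncRNAs known from cancer, 79 were found in the annotation and 3 held a member (3.8%, against 2.05% of all lncRNA genes when every gene over a summit is counted). No other SOX4 summit of any class lay in the 79. LINC-PINT, a p53-induced lncRNA, had a peak of 7.84 from 42 fragments on chromosome 7 (131071539 to 131072516), 38.1 kb from MKLN1. SCHLAP1, an lncRNA of aggressive prostate cancer that binds the SWI/SNF remodeller, had 6.88 from 40 fragments on chromosome 2 (180874260 to 180875002), 106 kb from UBE2E3. SNHG14, with 27.7, was the third. These genes were long, at 232 kb for LINC-PINT, 225 kb for SCHLAP1 and 596 kb for SNHG14, against a median of 9.0 kb over all. Longer genes held a member more often, and the shares above were not matched for length.

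Of all 20050 protein-coding genes, 1.79% were nearest to a member. Among 20 SOX genes it was 1 (5.0%), SOX6, a factor of cartilage and erythroid development. It was 49.7 kb from a peak of 6.38 with 34 fragments in LINC02682 on chromosome 11 (15916276 to 15917125). Among 42 liver genes it was 2 (4.76%). ONECUT1, a hepatocyte transcription factor also called HNF6, was the nearest gene at 237 kb to a peak of 14.7 with 89 fragments in LOC107983981 on chromosome 15 (53026321 to 53027461). ASGR1, the hepatocyte asialoglycoprotein receptor, lay 4.29 kb from a faint peak of 3.11 with 18 fragments in LOC124903911 on chromosome 17 (7168892 to 7169369).

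Among 39 genes of epithelial-mesenchymal transition and stemness it was 1 (2.56%), SMAD3, which carries TGF-beta signals. It lay 74.9 kb from a peak of 8.69 with 49 fragments in its divergent transcript SMAD3-DT on chromosome 15 (66990216 to 66991250). Among 255 developmental transcription factors taken by family it was 4 (1.57%). The first 3 shares are above the 1.79% and the last is below it, each on 1 to 4 genes. Besides ONECUT1 and SOX6 these were FOXB2, 31.8 kb from a peak of 11.3 with 61 fragments in LOC105376096 on chromosome 9 (77052134 to 77053178), and KLF6, a tumour suppressor, 130 kb from a peak of 5.28 with 28 fragments in LOC107984193 on chromosome 10 (3645489 to 3646341). Nearest on the chromosome is a position, and whether SOX4 acts on any of these genes was not tested.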

How the data were processed

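Hep3B cells were profiled with SOX4, STAT6 and IgG antibodies by CUT&RUN, 1 library each, with 150-bp paired-end reads processed in Partek Flow per the study's methods. The submitters' processing notes name hg38 and BWA. The peak caller, its version, its threshold and its treatment of reads with several positions are not given in the sources used here. For 4513 SOX4 and 1078 STAT6 peaks the authors deposited start, end, summit, fold enrichment over IgG (a ratio), −log10 p, −log10 q and a whole-number display score, which was not used. The lowest deposited −log10 q was 1.31 for SOX4 and 1.35 for STAT6. Read totals are unknown.

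Summits were placed in a RefSeq gene table of GRCh38.p14 (59716 placed genes, 20050 protein-coding, 17051 pseudogenes), with positions 1-based. The table gives gene ends without exons, so whether a summit was exonic or intronic was not analysed here. Where a summit lay in several lncRNA genes, the one with the nearest end was named and all were counted for the gene lists. Strand came from the RefSeq promoter table. Fragments were solved from fold and −log10 p with a Poisson relation and a pseudocount of 1, a step added after the values were seen. Its test on simulated data used values made by the same relation, so it checked the solving and not the relation. Control levels as high as the 28.0 of 1 member were not simulated. Fold was compared within the SOX4 list only.

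The members, the gene lists and the rule for named genes were chosen with earlier results of these data known. Named were the 10 highest members, genes with at least 3, the 3 widest, the 5 highest within 1000 bp of a gene end, members of the lists, the 3 nearest to each limit, the 3 nearest to STAT6 and the lowest. A further member of this rule is not reported here. The others within 100 kb of STAT6, the next lowest and the paired members of the Y chromosome were named after their values were seen. Alternatives were a −log10 q or fold of at least 5, named genes alone, a margin of 10000 bp, a reach of 100 kb and the like. Shares have Wilson and rates exact Poisson 95% intervals. Python 3.11.15, numpy 2.4.6, pandas 2.3.3, scipy 1.17.1 and matplotlib 3.10.9 were used.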

Additional observations from a re-analysis of the deposited data

How the results depend on the processing

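With 1 library for each antibody, no replicate could be left out, and the read totals that would set the depth are unknown. No paired analysis was possible because there was a single library per antibody. Over 10 alternatives and 6 results, 45 of 60 values stayed near the reported one and 15 moved. Near meant within a factor of 1.5 for the number of members, and inside an interval around the reported value for the rest. The alternatives that moved values all left fewer than 400 members. With a fold of at least 5 in both lists the members numbered 206, their median fold was 7.44, 28.2% reached a fold of 10 and 12.6% lay in a gene with more than 1 member. Under a −log10 q minimum of 5 the members numbered 297, and the last 3 values were 5.97, 19.5% and 14.8%. Named genes alone, without LOC entries, left 148 members, with 3.38% of summits within 1000 bp of a gene end and 12.8% in a gene with more than 1. A protein-coding gene within 100 kb left 215, with a median distance of 27.9 kb and 8.84% in a gene with more than 1. A margin of 10000 bp put the median distance at 108 kb. Requiring the whole peak inside the lncRNA gene put the share near a gene end at 3.33%. Leaving out SOX4 peaks within 1000 bp of a STAT6 peak, or merging touching entries, left 400 members. Values of single peaks carry no error from replicates, and the caller's threshold sets how many low members exist.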
